A study of Mus musculus with 8 samples.

Results

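Naive pluripotency in mouse embryonic stem cells rests on a small core of transcription factors and on a wider ring of ancillary genes that report or reinforce that state. Of these, 10 were examined, given by symbol: Tfcp2l1, Tbx3, Prdm14, Nr0b1, Nr5a2, Zfp42, Gbx2, Dppa3, Tcl1 and Fbxo15. All 10 were matched to an Ensembl identifier among the 52636 in the count files, and all 10 passed the filter on low counts that left 15517 genes for testing. The samples were E14 cells, a mouse embryonic stem cell line, either unmodified (WT) or with Klf4 knocked out (KO). RNA-seq comprised 2 libraries of each genotype, and HiChIP of RNA polymerase II, which sequences ligated pairs of DNA ends (paired-end tags, PETs) from chromatin pulled down with that enzyme, was analysed as 1 pooled file per genotype. The labels describe gelatin-coated dishes and 2 media for all 8 samples, both with 15% serum: one with 10 ng/mL LIF, the MEK inhibitor PD0325901 at 1 µM and the GSK3 inhibitor CHIR99021 at 3 µM, and the other with 1000 U/mL LIF. Neither the medium of the sequenced cells nor the number of edited clones behind the KO libraries is stated.

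In the naive state, the cytokine LIF acts through STAT3, inhibition of GSK3 relieves repression by TCF7L1 through beta-catenin, and inhibition of MEK blocks FGF and ERK signalling. These inputs converge on factors such as TFCP2L1, TBX3 and GBX2 that sustain self-renewal beside OCT4, SOX2, NANOG and the KLF factors. PRDM14 represses FGF receptor and de novo DNA methyltransferase genes, and NR5A2 binds the same short DNA element as ESRRB. ZFP42, better known as REX1, is a widely used marker that is lost as cells leave the naive state.

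Reads assigned to genes totalled 8287497 to 9762190 in the 4 libraries. Klf4 had 2882 and 2421 counts in WT replicates 1 and 2 and 0 in both KO libraries (B and F). The Y-linked genes Eif2s3y, Ddx3y, Uty and Kdm5d, all detected in both WT libraries, also had 0 counts in both KO libraries, so genotype and other differences between the cells cannot be told apart. All 10 embryonic stem cell markers, Zfp42 among them, were detected, with 3 higher (Utf1, Lin28a and Dppa4) and none lower in KO. Over all tested genes 2.96% were higher and 5.34% lower, the shares to set beside this and the marker lists below. Levels are given as CPM, the counts per 1000000 of the TMM-scaled library size. Of 10 fibroblast and feeder markers, 5 were tested and none passed, Lum and Postn had no count in any library, and the sums of 2871 and 1797 CPM in WT and 1053 and 1371 CPM in KO were mostly Fn1. The 10 trophoblast markers (7 tested, 1 higher, 1 lower) summed to 109.7 and 125 CPM in WT and 158 and 83.6 CPM in KO. The 10 primitive endoderm markers (6 tested, 2 higher, 2 lower) summed to 501 and 473 CPM in WT and 176 and 203 CPM in KO, mostly Sparc and Lama1, the 2 that fell. Of 10 markers of formative and primed cells, the state that follows the naive one, 9 were tested and 8 rose, with sums of 137 and 134 CPM in WT and 536 and 566 CPM in KO. Their part in the results below was not tested. In bulk RNA, fewer cells of a type and less RNA per cell cannot be told apart.

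Of the 10 genes, 3 fell in KO (Tfcp2l1, Tbx3 and Fbxo15), none rose and 7 did not pass the test at a false discovery rate (FDR) of 0.05 in edgeR. Across all tested genes 8.30% were called, 5.34% lower and 2.96% higher. At an unadjusted p under 0.05 there were 6 of the 10, against 24.4% of tested genes. The median log2 fold change of the 10 was -0.73, against -0.0015 over all tested genes. Both KO libraries lay below both WT libraries for 6 of the 10 (27.5% of tested genes) and above them for 2 (26.0%). The fitted change was below 0 for 7 (50.1% of tested genes) and above 0 for 3. It ranged from Tfcp2l1 at -1.90 to Gbx2 at 1.60. None of the 3 above 0 passed the test, so a split in direction was not established. Levels of different genes were not compared, because no transcript lengths were used.

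**Figure D1:**
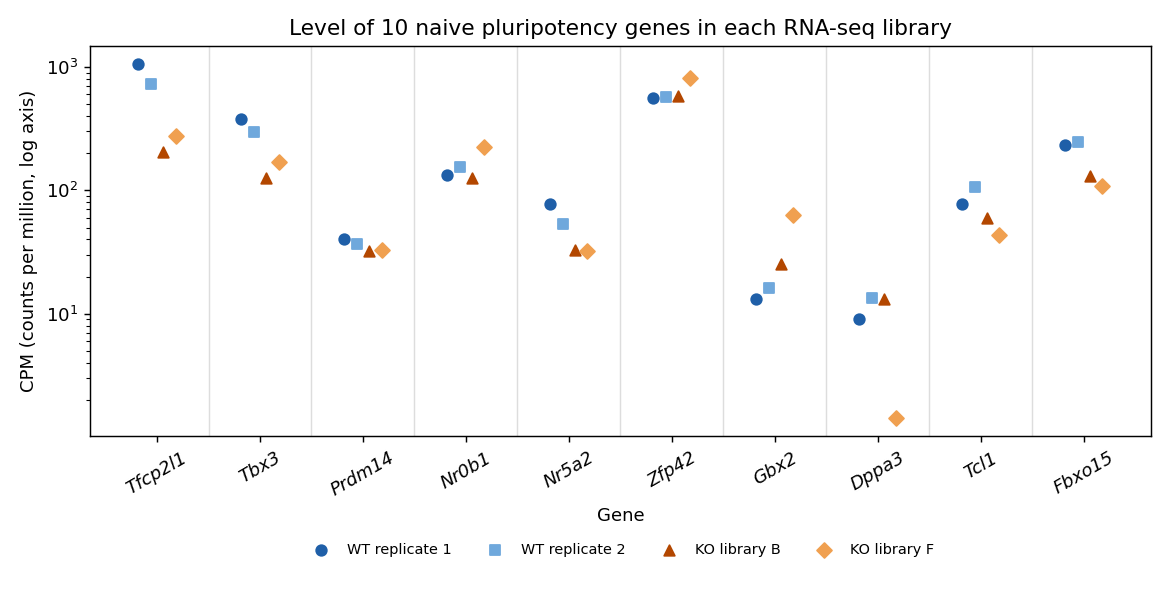
Level of each of the 10 genes in CPM on a log axis, with 1 point per RNA-seq library (WT replicates 1 and 2, KO libraries B and F). Both KO points lie below both WT points for Tfcp2l1, Tbx3, Prdm14, Nr5a2, Tcl1 and Fbxo15 and above them for Zfp42 and Gbx2, and the KO points of Dppa3 stand far apart at 13.2 and 1.42 CPM.

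RefSeq promoter windows were matched for 6 of the 10 genes. Tbx3, Prdm14, Dppa3 and Fbxo15 had no window, so the motif search did not cover them. The 250 bases before the annotated start are shown for Tfcp2l1, Zfp42 and Gbx2, because anchors of both HiChIP pools cover these starts. The Tfcp2l1 transcript fell. Neither Zfp42 nor Gbx2 passed the test, and each had both KO libraries above both WT libraries. Capitals mark matches on either strand to short cores of the motifs of KLF factors (GGGNGTG) and OCT4 (TGCAAAT). All windows are GRCm38.p6, 5′ to 3′ along the gene. They lie at chr1:118627695-118627944 on the plus strand for Tfcp2l1, at chr8:43307010-43307259 on the minus strand for Zfp42 and at chr1:89931177-89931426 on the minus strand for Gbx2.
Tfcp2l1: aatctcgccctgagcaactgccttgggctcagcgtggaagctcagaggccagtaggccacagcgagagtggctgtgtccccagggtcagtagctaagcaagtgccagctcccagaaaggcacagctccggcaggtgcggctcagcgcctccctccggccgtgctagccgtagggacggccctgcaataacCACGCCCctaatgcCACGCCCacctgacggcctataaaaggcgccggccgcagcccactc
Zfp42: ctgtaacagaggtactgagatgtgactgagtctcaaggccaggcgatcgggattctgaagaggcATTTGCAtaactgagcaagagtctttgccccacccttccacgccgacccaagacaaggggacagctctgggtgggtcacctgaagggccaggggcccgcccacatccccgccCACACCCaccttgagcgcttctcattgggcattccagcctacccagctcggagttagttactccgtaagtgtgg
Gbx2: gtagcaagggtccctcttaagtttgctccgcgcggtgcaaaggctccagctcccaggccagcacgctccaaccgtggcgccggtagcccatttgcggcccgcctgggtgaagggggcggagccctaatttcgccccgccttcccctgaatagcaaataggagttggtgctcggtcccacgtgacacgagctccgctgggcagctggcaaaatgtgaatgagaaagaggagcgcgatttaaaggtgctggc

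The Tfcp2l1 window holds 2 KLF cores on the minus strand, ending 54 and 40 bases before the start. The Zfp42 window holds 1 KLF core ending 68 bases before the start and 1 OCT core ending 180 bases before it. No searched motif was found in the Gbx2 window. Nr5a2 has 2 annotated starts, 1 of which carries a KLF core. The single window of Nr0b1 carries one too. In all, the KLF core occurred in 4 of 7 windows of these genes and in 26.1% of all 32851 windows of the table, and the OCT core in 1 of 7 and in 3.565%. The nuclear receptor element AAGGTCA, the STAT element TTCNNNGAA and the TFCP2L1 repeat CCAGNNNNNNCCAG were each found in 0 of 7 windows, and in 4.079%, 7.02% and 2.782% of all windows. No match in these windows overlapped another. A match describes the letters only and is not evidence of binding.

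Among the DNA-binding factors, Tfcp2l1 (ENSMUSG00000026380, chromosome 1, 118627923 to 118685168, mm10) encodes a CP2-family factor that acts downstream of LIF and STAT3, and it was the one of the 10 that stayed called with each library left out. Its level was 1061 and 721 CPM in WT replicates 1 and 2, and 203 and 274 CPM in KO libraries B and F. The KO libraries lay well below WT without overlap. The mean fell 3.73-fold from 891 ± 241 to 239 ± 50.0 CPM (SD, n = 2; log2 fold change -1.90 ± 0.31 SE, edgeR FDR 0.011). With 1 library left out, the edgeR FDR was at most 0.040.

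Tbx3 (ENSMUSG00000018604, chromosome 5, 119670534 to 119684724), a T-box factor that supports self-renewal and is also known from limb and heart development, measured 379 and 298 CPM in WT and 126 and 170 CPM in KO. Both KO values were below both WT values. The fall was 2.29-fold, from 339 ± 56.8 to 148 ± 31.0 CPM (SD, n = 2; log2 fold change -1.20 ± 0.27 SE, edgeR FDR 0.032). With KO library B left out the edgeR FDR was 0.29 and with KO library F left out 0.096, so either omission ended the call. The start of Tbx3 overlaps the non-coding gene Tbx3os1, and without the strand setting of the counting their reads there cannot be told apart. Tbx3os1 itself had 147 and 51 counts in WT and 32 and 58 in KO, with overlapping groups (edgeR FDR 0.32).

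Prdm14 (ENSMUSG00000042414, chromosome 1, 13113428 to 13127163), whose protein holds FGF signalling and DNA methylation low in naive cells, had 40.1 and 36.5 CPM in WT and 32.1 and 32.8 CPM in KO. The libraries of each genotype were close to each other, with KO just below WT. On the log2 scale KO minus WT was -0.24 (95% interval -0.82 to 0.35) with an edgeR FDR of 0.62, so a fall or rise of over 2-fold lies outside the interval.

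Zfp42 (ENSMUSG00000051176, chromosome 8, 43295067 to 43307009) had 564 and 570 CPM in WT and 586 and 818 CPM in KO. All values lay close together except KO library F, which was the highest. The log2 difference was 0.31 (95% interval -0.31 to 0.93) with an edgeR FDR of 0.54. This marker of the naive state thus showed no fall past the test, and a fall to the extent of Tfcp2l1 lies outside its interval.

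Gbx2 (ENSMUSG00000034486, chromosome 1, 89927962 to 89931176), a homeobox gene that responds to LIF and later patterns the midbrain-hindbrain border, stood at 13.2 and 16.1 CPM in WT and at 25.3 and 63.4 CPM in KO. Both KO libraries were above WT, and library F was 2.51 times library B. The log2 fold change was 1.60 ± 0.43 (SE, 95% interval 0.61 to 2.59), which missed the threshold (edgeR FDR 0.060). It was called higher with DESeq2 (adjusted p = 0.0047), and by edgeR without WT replicate 1 (FDR 0.015), WT replicate 2 (0.0026) or KO library B (4.3e-04). Without KO library F the log2 fold change was 0.80 (edgeR FDR 0.48).

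The 2 genes for nuclear receptors differed from each other in their values. Nr5a2 (ENSMUSG00000026398, chromosome 1, 136842562 to 136960448), whose product LRH-1 can activate Pou5f1, measured 78.2 and 53.8 CPM in WT and 32.9 and 32.6 CPM in KO. The KO values nearly coincided and lay below both WT values. The log2 fold change of -1.01 ± 0.28 (SE, 95% interval -1.65 to -0.37) missed the edgeR threshold (FDR 0.063), but was called lower with DESeq2 (adjusted p = 0.032) and by edgeR without WT replicate 2 (FDR 0.0037). Nr0b1 (ENSMUSG00000025056, X chromosome, 86191775 to 86195947), which encodes the corepressor DAX1, had 134 and 153 CPM in WT and 125 and 223 CPM in KO. The KO libraries enclosed the WT values, and the log2 difference was 0.28 (95% interval -0.42 to 0.98) with an edgeR FDR of 0.62. It changed sign without KO library F (-0.19, edgeR FDR 0.94).

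**Figure D2:**
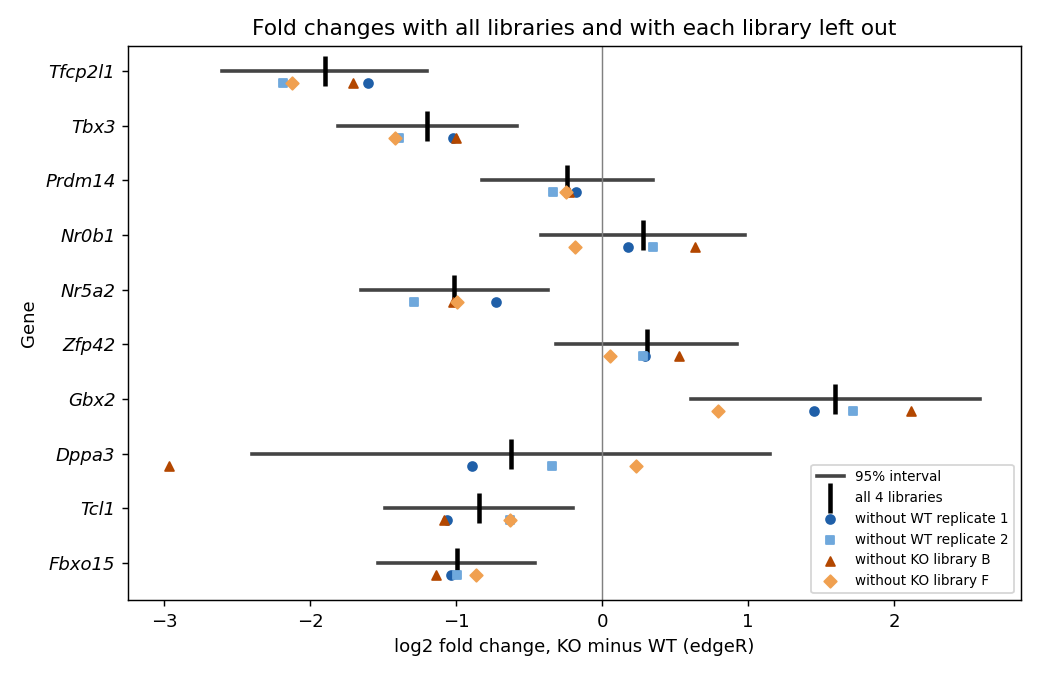
Log2 fold change of KO minus WT for each gene, from edgeR, with all 4 libraries (vertical tick, with its 95% interval as a bar) and with each library left out (coloured points). Tfcp2l1 stays between -2.18 and -1.60, whereas Dppa3 ranges from -2.97 without KO library B to 0.23 without KO library F.

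The remaining 3 genes encode no DNA-binding pluripotency factor of this network. Dppa3 (ENSMUSG00000046323, chromosome 6, 122626424 to 122630271), also called Stella, protects the maternal genome from demethylation after fertilisation and varies from cell to cell in stem cell cultures. Its counts were 85 and 124 in WT and 110 and 12 in KO, or 9.03, 13.5, 13.2 and 1.42 CPM. Only KO library F was low, 9.27 times below library B, and the groups overlapped. The log2 fold change of -0.63 had a 95% interval of -2.40 to 1.15 (edgeR FDR 0.67). Library F alone against WT gave -2.97 (edgeR FDR 8.7e-04) and library B alone 0.23 (edgeR FDR 0.93), on the assumption that a lone library varies like the other group.

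Fbxo15 (ENSMUSG00000034391, chromosome 18, 84934552 to 84981476), an F-box gene known as a target of OCT4 and SOX2 and as an early reporter in reprogramming, had 233 and 244 CPM in WT and 130.4 and 108 CPM in KO. The genotypes were clearly apart and replicates of each were close. The level fell 1.99-fold from 238 ± 8.19 to 119 ± 15.5 CPM (SD, n = 2; log2 fold change -0.996 ± 0.24 SE, edgeR FDR 0.038). Omitting KO library B (edgeR FDR 0.20) or KO library F (0.45) ended the call, at log2 fold changes of -1.13 and -0.86. The span of Fbxo15 contains Timm21, a mitochondrial import gene, over 5340 bases, so reads there are uncertain. Timm21 went the other way, from 6.80 and 6.53 CPM in WT to 12.6 and 18.2 CPM in KO, but did not pass (edgeR FDR 0.080).

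Tcl1 (ENSMUSG00000041359, chromosome 12, 105216753 to 105222737), which encodes a coactivator of the kinase AKT, had 77.7 and 107 CPM in WT and 59.2 and 43.5 CPM in KO. Both KO values were lower than both WT values. The log2 fold change was -0.84 ± 0.28 (SE, 95% interval -1.49 to -0.20, edgeR FDR 0.11). It was called lower without WT replicate 1 only (-1.06, edgeR FDR 0.013).

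**Figure D3:**
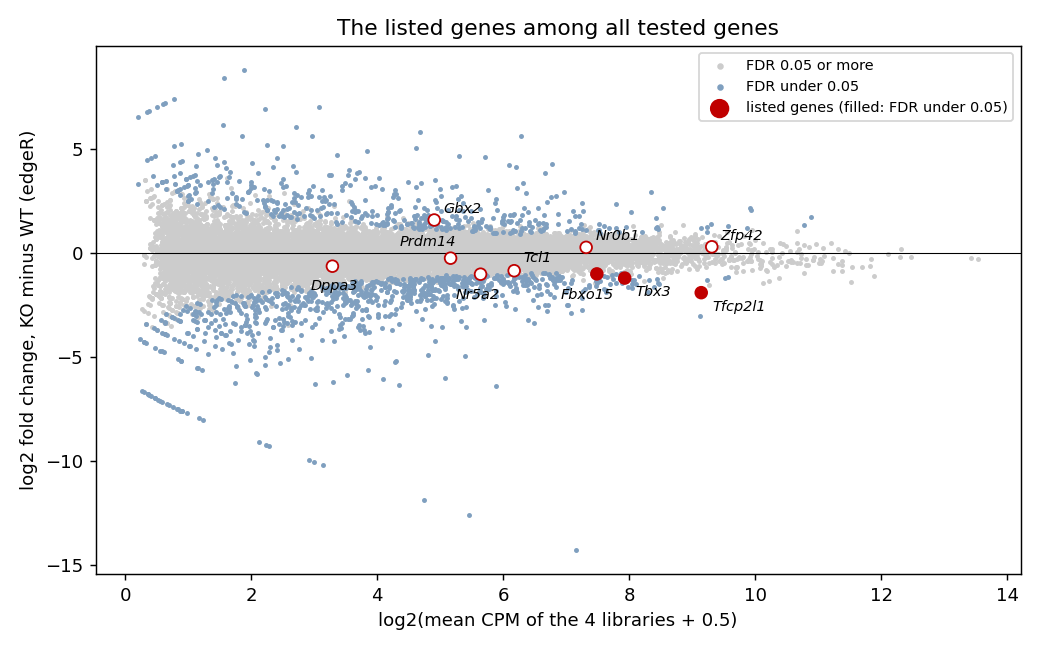
Log2 fold change of KO minus WT against log2 of the mean CPM plus 0.5 for all 15517 tested genes, in grey or blue by edgeR FDR, with the 10 listed genes circled in red and filled where the FDR was under 0.05. The filled points are Tfcp2l1, Tbx3 and Fbxo15, all below 0.

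Other genes of the naive network split in the same comparison. Of 18 listed, all tested, 3 fell and 1 rose, against 5.34% and 2.96% of all tested genes. The median log2 fold change of the 18 was 0.03. The core factor genes Pou5f1, Sox2, Nanog, Esrrb and Sall4 were among those that did not pass. Tdh, for the threonine-catabolising enzyme of mouse stem cells, had 438 and 553 CPM in WT and 136 and 132 CPM in KO (log2 fold change -1.89, edgeR FDR 0.0058). Jam2, a junctional adhesion gene, had 399 CPM in both WT libraries and 93.5 and 159 CPM in KO (-1.66, edgeR FDR 0.016), and Spp1, for the secreted protein osteopontin, 795 and 916 CPM against 287 and 404 CPM (-1.31, edgeR FDR 0.028). Omitting KO library B ended the Jam2 call, at a log2 fold change of -1.32. Omitting either KO library ended that of Spp1 (-1.08 without B, -1.57 without F).

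Genes that act with the 10, as inputs, partners or known targets, had a median log2 fold change of 0.38 over 23 tested. Of these, 5 were higher and none lower, against 2.96% and 5.34% of all tested genes. The list includes genes of de novo DNA methylation and FGF receptor genes, 2 groups that PRDM14 is known to repress. Dnmt3l had 62.8 and 86.7 CPM in WT and 539 and 612 CPM in KO (log2 fold change 2.94, edgeR FDR 0.0023). Dnmt3a went from 55.4 and 40.4 to 219.9 and 292 CPM (2.42, edgeR FDR 0.0038), and Dnmt3b from 76.5 and 56.5 to 225 and 229 CPM (1.77, edgeR FDR 0.0077). Fgfr2 went from 1.59 and 1.85 to 12.1 and 5.57 CPM (2.35, edgeR FDR 0.032), a call that ended without KO library B (edgeR FDR 0.15) and in limma voom (adjusted p = 0.052). The other receptor gene listed, Fgfr1, had 126 and 110.1 CPM in WT and 125 and 107 CPM in KO, with overlapping groups (log2 fold change -0.02, edgeR FDR 0.96). Dnmt3l, Dnmt3a, Dnmt3b and Fgfr2 had both KO libraries above both WT libraries, while Prdm14 itself did not pass, as given above. The fifth gene that rose, Rlim, is named after its values were seen. It encodes a ubiquitin ligase for ZFP42 and measured 64.0 and 59.8 CPM in WT and 159 and 112 CPM in KO (1.13, edgeR FDR 0.035), and 0.86 without KO library B (edgeR FDR 0.33). The LIF receptor genes Lifr and Il6st, Jak1, Stat3 and Socs3 did not pass, nor did Akt1, Akt2 or the F-box partners Skp1, Cul1 and Rbx1.

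Of the 20 nearest tested genes on either side of the 10, 1 fell and none rose, with a median log2 fold change of -0.13. Over all tested genes 5.34% were called lower, a share near that of the neighbours, and 2.96% higher. The one was Gdf3, a TGF-beta family ligand gene 16337 bases from Dppa3, at 96.6 and 118 CPM in WT and 48.4 and 48.6 CPM in KO (log2 fold change -1.14, edgeR FDR 0.027). The 2 KO libraries were alike for Gdf3, unlike for Dppa3 next to it. Omitting KO library B or F ended this call, although the log2 fold change stayed at -1.14 with either left out. Cyb5a, next to Fbxo15, had 44.4 and 57.1 CPM in WT and 90.0 and 72.7 CPM in KO (edgeR FDR 0.16). Agap1, next to Gbx2, had 65.0 and 45.9 CPM in WT and 35.9 and 35.3 CPM in KO (edgeR FDR 0.20). Neither neighbour of Tfcp2l1 passed: Clasp1 had an edgeR FDR of 0.89 and Gli2 one of 0.81.

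In HiChIP, the WT pool held 35189 PETs over 8373 anchors and the KO pool 401726 PETs over 18293 anchors, covering 18973059 and 66995959 bases. Anchors were listed separately for each pool, so PET sums move with how much was called, and with 1 pool per genotype there is no replicate check and no test. Intervals are exact Poisson 95% intervals for counting error only. A pair was assigned to a gene if an anchor overlapped its span extended by 2500 bases on each side. By this rule 6 of the 10 genes had a pair in the WT pool, where 36.1% of protein-coding genes did, and the same 6 in the KO pool, where 51.3% did. Shares here are over all 21887 protein-coding genes, expressed or not, whereas all 10 passed the RNA filter on low counts. They are therefore not a like-for-like background. Pairs that joined 2 anchors were found at 5 of the 10 in WT, all of these but Tbx3, and at 6 in KO (35.1% and 51.1% of protein-coding genes). The 6 were Tfcp2l1, Tbx3, Nr5a2, Zfp42, Gbx2 and Fbxo15. No listed anchor lay at Prdm14, Nr0b1, Dppa3 or Tcl1 in either pool.

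Zfp42 had the most PETs of the 10 in the WT pool, 60 (45.8 to 77.2) over 15270 bases of anchors, and 195 (169 to 224) over 19407 bases in the KO pool. Per 100000 PETs of the pool this was 171 and 48.5. Of the PETs, 22 of 60 in WT and 105 of 195 in KO lay within 1 anchor. In WT, 3 anchors along the gene were joined to each other by 12, 10 and 4 PETs. In KO, 2 anchors at the gene were joined by 32 PETs, and the one over the start was joined by 18 PETs to a site 17132 bases away (43319942 to 43324384). A further 4 PETs in KO, in pairs of 3 PETs and 1 PET, led to the anchor at Triml1 and Triml2.

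Tfcp2l1, whose transcript fell, had 1 PET in the WT pool, to a site 43106667 bases away. In the KO pool it had 201 (174 to 231), 104 within 1 anchor and 97 between 2 anchors. Its WT anchor (118626527 to 118629090) and 1 of its 3 KO anchors (118627474 to 118629090) cover the start. The other KO anchors, at 118639754 to 118655539 and 118657545 to 118660980, lie inside the gene and overlap no WT anchor. They were joined to each other by 25 PETs, and the start was joined to the first by 12. Outside the gene, its KO pairs with the most PETs led to a site 428191 bases away (6 PETs) and to an anchor at Clasp1 70683 bases away (5 PETs). A further 4 pairs held 4 PETs each, and led to that Clasp1 anchor, to an anchor at Nifk 326214 bases away and to sites 42790 and 751692 bases away. Per 100000 PETs, Tfcp2l1 had 2.84 (0.0719 to 15.8) in WT and 50.0 (43.4 to 57.4) in KO, over 2564 and 20839 bases of anchors.

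Tbx3 had 11 PETs in the WT pool (5.49 to 19.7), all within 1 anchor of 2146 bases over the 119669653 to 119671798 region. It had 181 (156 to 209) in KO over 21071 bases, 44 of them within 1 anchor. In KO, its 2 anchors were joined by 15 PETs, and the anchor at 119666109 to 119676524 was joined by 14 PETs to 119655711 to 119665202 and by 10 PETs to 119607817 to 119617873. Both of these sites overlap the span of Tbx3os1 (119611253 to 119671508). Fbxo15 had 15 PETs in WT (8.40 to 24.7) over 6975 bases and 133 in KO (111 to 158) over 16549 bases. Within 1 anchor lay 6 of the 15 and 46 of the 133. Anchors at Fbxo15 were joined to each other by 3 PETs in WT and by 17, 13 and 11 PETs in KO. Each of these pairs has at least 1 anchor that overlaps the span of Timm21 (84946191 to 84951530). Their PETs therefore cannot be assigned to Fbxo15 alone. Outside the gene, the KO pair with the most PETs (5) led to a site 225635 bases away. A pair of 4 PETs in KO led 83709 bases away to an anchor at Cyb5a. In WT, pairs of 1 PET led from each Fbxo15 anchor to an overlapping anchor at Cyb5a. Per 100000 PETs, Tbx3 had 31.3 in WT and 45.1 in KO, and Fbxo15 had 42.6 and 33.1, with intervals that overlap for both.

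Gbx2 and Nr5a2 had few PETs. Gbx2 had 12 in the WT pool (6.20 to 21.0) over 2733 bases and 5 in the KO pool (1.62 to 11.7) over 2255 bases, although the KO pool was the larger. Per 100000 PETs of the pool this was 34.1 (17.6 to 59.6) in WT and 1.24 (0.404 to 2.90) in KO. In WT, 3 of the 12 joined the 2 anchors of the gene over 3518 bases. All 4 pairs in KO that joined Gbx2 to another anchor had 1 PET and spanned over 1 Mb. Nr5a2 had 2 PETs in WT and 12 in KO, and every pair that joined it to another anchor held 1 PET. In each pool 1 of these led to an anchor at Kif14, but the WT and KO anchors there do not overlap. The other WT partner (136568248 to 136571650) lies inside a KO partner (136564530 to 136577157). In KO it was reached from a different anchor at Nr5a2. Of pairs between anchors, 18 of 37 at Tfcp2l1, 21 of 47 at Tbx3, 18 of 28 at Zfp42, 15 of 34 at Fbxo15 and 3 of 9 at Nr5a2 spanned over 1 Mb in KO, where 35.0% of all such pairs did.

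**Figure D4:**
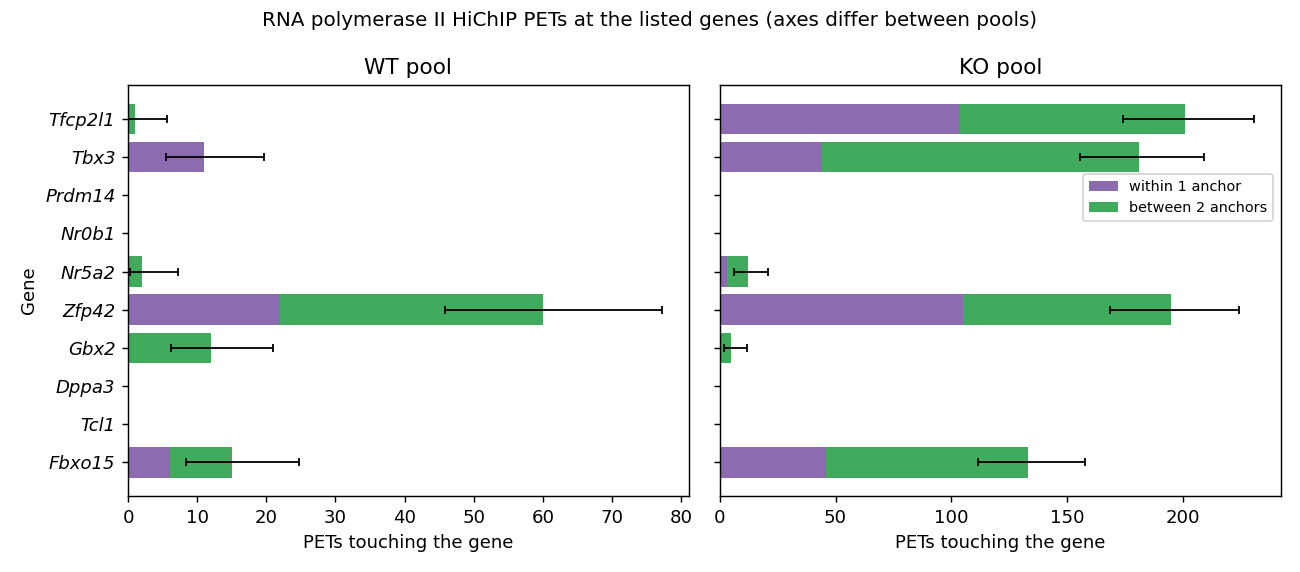
PETs touching each gene in the WT pool (left) and the KO pool (right), on axes that differ, with bars from 0 split into PETs within 1 anchor and between 2 anchors and exact Poisson 95% intervals for the sum. Zfp42 leads in WT with 60 PETs, and Tfcp2l1, Zfp42, Tbx3 and Fbxo15 have 133 to 201 in KO.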

How the data were processed

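The authors deposited whole-number read counts per Ensembl gene and PET counts per anchor pair. The submitters' processing notes name HiC-Pro 2.11.4 and DESeq2 1.18.1, the build mm10, the counter HTSeq 0.9.1 and the aligner HISAT2 2.1.0. Sources used here do not state annotation release, strand setting, loop caller or filters. Lines that name no gene were left out, and genes held 34.5% to 36.0% of the records. KO count files carry letters, not replicate numbers. The labels call the samples biological replicates. The clonal origin is not stated, so p-values measure the spread between these libraries.

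KO was compared with WT over all tested genes in R 4.3.3 by edgeR 4.0.16 (TMM factors, filterByExpr, quasi-likelihood F-test, two-sided, genotype only, Benjamini-Hochberg adjustment, FDR 0.05). SE is the size of the log2 fold change over the root of F. The code was tested on simulated data. Alternatives were RLE factors, library totals, DESeq2 1.42.0, limma voom 3.58.1, other filters and leaving out each library. A name table gave symbols for 52403 identifiers, with RefSeq synonyms for symbols it lacked. Positions, promoters and neighbours came from RefSeq GRCm38.p6. Poisson intervals used SciPy 1.17.1. The genes and lists were chosen with earlier results of these data known. Named besides the 10 are up to 4 genes with the smallest p in each of 3 lists and among the neighbours. Others are named outside this rule. They include Klf4, the Y-linked genes, Rlim, Fgfr1, Tbx3os1, Clasp1, Gli2, the core factor genes and the listed genes said not to pass. Some genes that this rule or the lists include are not reported here.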

Additional observations from a re-analysis of the deposited data

How the results depend on the processing

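No paired analysis was possible because the KO count files carry letters and no replicate numbers. The 1288 genes called by edgeR became 2 with no filter on low counts, and 1013 to 2517 when 1 library was left out, the most without WT replicate 1. Of the 10 genes, 3 were called. With no filter there were 0 (FDR 0.10 for Tfcp2l1, 0.15 for Tbx3 and 0.13 for Fbxo15, and 0.073 for Klf4), with DESeq2 5, and with 1 library left out between 1 and 5. The calls named from the wider network, the partners, the relatives and the neighbours also ended with no filter. The cause was not tested. RLE factors, library totals, limma voom and a filter of 1 CPM in 2 libraries called the same 3 genes. The median log2 fold change of the 10 lay between -1.01 (without KO library B) and -0.44 (without KO library F). The omission of single libraries changed the sign for Nr0b1 (-0.19 without KO library F to 0.64 without B) and Dppa3 (0.23 without F to -2.97 without B). PETs at the 10 genes were 101 in the WT pool and 727 in the KO pool. They were 34 and 197 within 2500 bases of the annotated starts, known for 6 of the genes, 71 and 623 with pairs of at least 2 PETs, and 101 and 796 with spans extended by 10000 bases. With 2 libraries per genotype, the 95% intervals above set what differences could be seen.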

Other observations

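Close relatives of the 10 genes were examined as a further group of 22, of which 11 passed the filter on low counts. Of these 11, 2 were higher and none lower in KO at an edgeR FDR of 0.05, against 2.96% and 5.34% of all tested genes. Prdm10, of the PRDM family of zinc finger genes, measured 32.0 and 18.4 CPM in WT and 74.6 and 66.9 CPM in KO (log2 fold change 1.49, edgeR FDR 0.028). Prdm15 had 17.1 and 11.7 CPM in WT and 28.0 and 31.0 CPM in KO, short of the threshold (edgeR FDR 0.084, and 0.024 without WT replicate 1). The T-box gene Tbx4 was at 1.38 and 1.52 CPM in WT and 4.07 and 3.08 CPM in KO (edgeR FDR 0.17). Of the 5 Tcl1b genes, relatives of Tcl1, none passed the filter on low counts.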
